A study of Mus musculus with 8 samples.

Results

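The ERK, JNK and p38 kinase genes described here are 8 genes of the MAP kinase family, chosen by name: Mapk3 (ERK1), Mapk8, Mapk9 and Mapk10 (JNK1, JNK2 and JNK3) and Mapk11, Mapk12, Mapk13 and Mapk14 (p38 beta, gamma, delta and alpha). All 8 were found among 22367 protein-coding genes of GENCODE vM1 on mm9. Chromatin came from Lewis lung carcinoma isografts grown under the skin of female C57BL/6J mice that were bought as young adults. LLC-NR tumors are drug sensitive, and LLC-R tumors come from 1 line that had been selected in mice under VEGF-Trap, a VEGF inhibitor. Nucleosomes cut out by micrococcal nuclease were precipitated with antibodies against H3K4me3, H3K9ac, H3K27me3 or H3K36me3, with 1 library per line and mark and 8 in all. How many tumors went into a library is not given in the sources used here. There are no replicates, so the values of LLC-NR and LLC-R stand side by side with no test, and the line and the library cannot be told apart.

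MAP kinases are the last step of relays in which a MAP kinase kinase kinase activates a MAP kinase kinase, which in turn phosphorylates the MAP kinase on a threonine and a tyrosine. ERKs mainly carry growth factor signals such as those of VEGF receptors, while JNKs and p38 kinases mainly answer stress and cytokines. Transcription factors such as Jun and Elk1 are among the substrates of MAP kinases, and each kinase has its own range of them. Mapk3, Mapk8, Mapk9 and Mapk14 are used in most tissues, Mapk10 mainly in neurons, and Mapk12 and Mapk13 in a narrower range of tissues. H3K4me3 and H3K9ac are marks of active promoters, H3K36me3 is laid down along transcribed gene bodies, and H3K27me3 is the mark of Polycomb repression.

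Mapk9, the JNK gene examined by ChIP-qPCR in the study, lies on chr11:49660253-49699923 on the plus strand. Mapk3 lies on chr7:133903115-133909333 on the plus strand, and Mapk10 on chr5:103336967-103640353 on the minus strand. The 250 bases before the TSS of Mapk9 and Mapk10 are shown because these JNK genes differ in CpG content and in H3K4me3, and because peaks around these TSSs are described next. They were read from the mm9 assembly in the sense of the gene, at chr11:49660003-49660252 and chr5:103640354-103640603. Capitals mark matches to the motifs named after the sequences.
Mapk9: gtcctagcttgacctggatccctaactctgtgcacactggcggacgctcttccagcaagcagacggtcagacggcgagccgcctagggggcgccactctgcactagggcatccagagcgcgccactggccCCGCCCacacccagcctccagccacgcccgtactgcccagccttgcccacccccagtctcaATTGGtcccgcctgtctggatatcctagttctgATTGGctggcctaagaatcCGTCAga
Mapk10: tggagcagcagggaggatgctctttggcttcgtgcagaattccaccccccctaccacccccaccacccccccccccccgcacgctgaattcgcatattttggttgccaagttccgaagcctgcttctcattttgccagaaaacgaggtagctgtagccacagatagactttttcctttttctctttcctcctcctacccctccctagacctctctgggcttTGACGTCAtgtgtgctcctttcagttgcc

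These stretches hold 14 CpGs in Mapk9 and 7 in Mapk10, at 63.6% and 54.8% G+C. Mapk10 is the only member with a promoter of intermediate CpG content (ICP), and the other 7 have CpG-rich promoters (HCPs). Each motif was searched on both strands in the same 250 bases of all 22367 promoters. The GC box GGGCGG was found in 7 members, in 40.1% of all promoters and in 64.8% of HCPs, and Mapk10 was the member without it. It was matched 7 times in Mapk8 and once in Mapk9. The CCAAT box CCAAT was found in Mapk9 and Mapk14, in 34.8% of all promoters and in 35.0% of HCPs. The cAMP response element TGACGTCA was found in Mapk10 alone, from 29 to 22 bases before the TSS, and in 1.94% of all promoters and 2.93% of HCPs. Its inner part TGACG, which the full element contains on both strands, was found in 5 members, in 19.6% of all promoters and in 28.1% of HCPs. The TATA box letters TATAAA were found in no member, in 12.4% of all promoters and in 5.45% of HCPs. The AP-1 letters TGANTCA and the ETS letters CCGGAA were also found in no member, against 5.98% and 14.2% of all promoters and 3.30% and 22.2% of HCPs. CACGTG (E-box) was found in Mapk12, in 6.50% of all promoters and in 8.97% of HCPs. A match describes letters and is not evidence of binding.

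The deposited data list the position of each peak and hold no height. A level is therefore a number of peaks with the midpoint in a region, and each peak is 147 bp wide. The libraries hold between 5660458 peaks (H3K4me3 in LLC-R) and 9101721 peaks (H3K27me3 in LLC-R). For H3K27me3 and H3K36me3 the LLC-R library is the larger of the pair, and for H3K9ac it is the smaller. The uniquely mapped reads listed by the study differ in the same directions and by larger factors. For H3K4me3 they are also fewer in LLC-R. No promoter held more than 9 peaks of a mark. The promoters of 8 lung epithelium, 8 leukocyte, 8 endothelial and 8 fibroblast marker genes held between 38 and 42 H3K4me3 peaks per list in LLC-NR. In LLC-R the leukocyte list held 31 (it had 41 in LLC-NR) and the other lists 39 each, and no marker was at 0. In such tumor tissue, fewer cells with a mark and less of the mark per cell cannot be told apart, and the part of host cells in the values of the kinase genes was not tested.

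Peaks of H3K4me3, the mark of active promoters, were fewer in LLC-R by 2 at Mapk3, Mapk8 and Mapk9, and more by 2 at Mapk13. A difference of at least 2 peaks was counted throughout. It was found in the lower direction in 3 of 8 members and in 18.4% of all promoters, and in the higher direction in 1 of 8 members and in 9.01% of all promoters. Within its 1.5-kb promoter (1 kb before and 0.5 kb after the TSS), Mapk3 held 7 peaks in LLC-NR but 5 in LLC-R. Mapk8 and Mapk9, which encode the broadly used JNKs, also held 7 and 5 peaks. In all 3 genes this moved the promoter from percentile 84.9 to percentile 52.1 among all promoters of the same library. Mapk10, the neuronal JNK gene, held 4 peaks in each line and stood at percentiles 29.9 and 33.1, the lowest of the 8 in LLC-R. Mapk12 held 7 and 7 peaks, Mapk11 6 and 7, and Mapk14 7 and 6. Mapk13, which encodes p38 delta, held 3 and 5 peaks. Its percentile among HCPs went from 3.11 (LLC-NR) to 29.0 (LLC-R), so that it was low for a CpG-rich promoter in the sensitive tumors. The 8 members together held 48 peaks (LLC-NR) and 44 peaks (LLC-R). Their median difference was -0.5 peaks, and that of all promoters was 0. Scaled to equal peaks or by uniquely mapped reads, the numbers of 7 and 5 differed by less than 2, and no member was lower by that much.

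**Figure D1:**
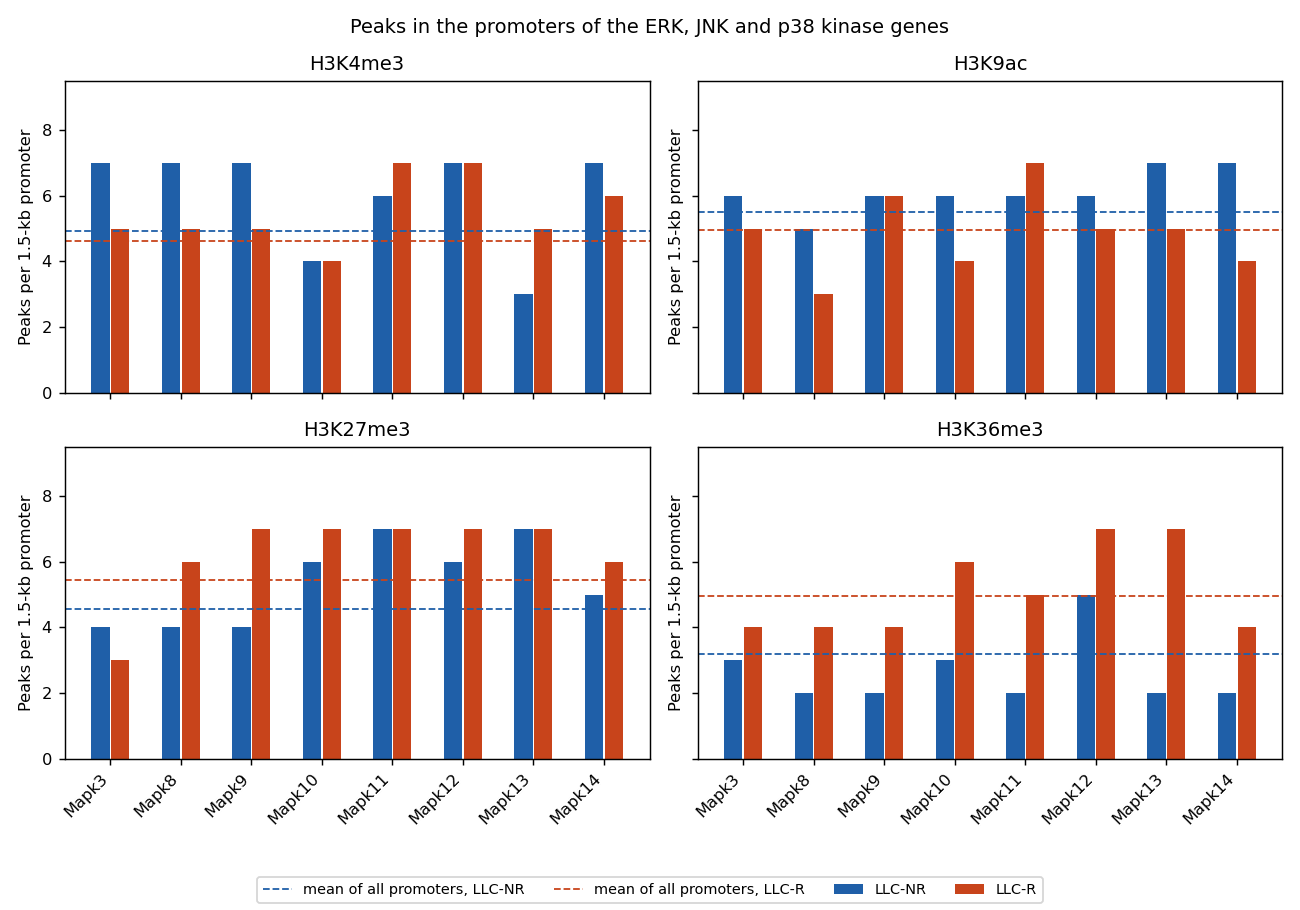
Bars give the number of peaks in the 1.5-kb promoter of each gene in LLC-NR (blue) and LLC-R (red), 1 library each, with 1 panel per mark; dashed lines give the mean of all promoters in each line. Mapk3, Mapk8 and Mapk9 have H3K4me3 bars of 7 (blue) and 5 (red) peaks, while the bars of H3K36me3 are higher in LLC-R in all 8 genes.

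H3K9ac, the other active mark, was lower in LLC-R by at least 2 peaks in 4 members, against 22.1% of all promoters, and higher by that much in none, against 5.4%. Mapk14, the gene of p38 alpha, had the largest difference, from 7 peaks in LLC-NR to 4 in LLC-R. Mapk13 held 7 and 5 peaks, Mapk10 6 and 4, and Mapk8 5 and 3. The 3 peaks of Mapk8 in LLC-R lay at percentile 11.1 of all promoters, the lowest H3K9ac rank of any member in either line. Mapk9 held 6 peaks in each line, Mapk3 and Mapk12 held 6 and 5, and Mapk11 was the only member with more in LLC-R, at 6 and 7. Scaled to equal peaks, 1 member was lower in H3K9ac by at least 2, and scaled by uniquely mapped reads none was lower and 4 were higher, so this direction depends on the scaling as well. Marker lists of 8 genes each also held fewer H3K9ac peaks in LLC-R, from 58 to 42 for fibroblasts, from 53 to 40 for leukocytes and from 49 to 41 for lung epithelium, while the endothelial list held 45 in each line. Their part in the values of the kinase genes was not tested. In unscaled numbers, H3K4me3 and H3K9ac did not move together in each gene. Mapk9 differed in H3K4me3 and was equal in H3K9ac, and Mapk10 did the reverse. Mapk13 held more H3K4me3 peaks and fewer H3K9ac peaks in LLC-R, and Mapk8 was lower by 2 in both.

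H3K27me3 separated the members in LLC-NR, while in LLC-R it set mainly Mapk3 apart from the others. In LLC-NR, Mapk3, Mapk8 and Mapk9 held 4 peaks each, at percentile 34.3, whereas Mapk11 and Mapk13 held 7 each, at percentile 92.4. Mapk10 and Mapk12 held 6 and Mapk14 held 5. In LLC-R, Mapk9, Mapk10, Mapk11, Mapk12 and Mapk13 held 7 peaks each, Mapk8 and Mapk14 held 6, and Mapk3 held 3, at percentile 8.25. Mapk8 and Mapk9 were the members with at least 2 peaks more in LLC-R, with differences of 2 and 3 peaks. Such a difference was found in 32% of all promoters, and one of 2 or more in the lower direction in 3.47% of all promoters and in no member. Mapk3 was the only member with fewer H3K27me3 peaks in LLC-R, by 1, and 15% of all promoters held fewer by 1 or more. At least 2 fewer H3K4me3 peaks together with at least 2 more H3K27me3 peaks were found in Mapk8 and Mapk9 and in 6.18% of all promoters. Scaled to equal peaks, no member held 2 or more H3K27me3 peaks more in LLC-R, and scaled by uniquely mapped reads 6 members held at least 2 fewer, so the direction for this mark depends on the scaling. Mapk8 and Mapk9 both encode JNKs, and the third JNK gene, Mapk10, held 4 and 4 H3K4me3 peaks and 6 and 7 H3K27me3 peaks.

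H3K36me3 is a mark of gene bodies, and its promoter peaks were more in LLC-R in all 8 members. The difference was at least 2 peaks in 7 of them, against 56% of all promoters. It was lower by that much in 1.11% of all promoters and in no member. The largest difference was that of Mapk13, from 2 peaks in LLC-NR to 7 in LLC-R. Mapk12 held 5 and 7 peaks, Mapk10 3 and 6, Mapk11 2 and 5, and Mapk3 3 and 4. Mapk8, Mapk9 and Mapk14 held 2 and 4 peaks each. The LLC-R library of this mark holds 8747519 peaks and that of LLC-NR 6432447. Scaled to equal peaks, 1 member, Mapk13, still held at least 2 more in LLC-R, and scaled by uniquely mapped reads none did.

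Promoter states were called with the mean of each mark over all promoters of the library as threshold. A promoter is active when H3K4me3 or H3K9ac reaches its mean and H3K27me3 does not, bivalent when H3K27me3 does so as well, and repressive when H3K27me3 alone does. Mapk3, Mapk8 and Mapk9 were active in LLC-NR and the other 5 members were bivalent. In LLC-R only Mapk3 remained active, Mapk8 and Mapk9 were bivalent, Mapk10 was repressive, and Mapk11, Mapk12, Mapk13 and Mapk14 were again bivalent. Among all promoters, 29.8% (LLC-NR) and 28.3% (LLC-R) were active, 48.4% and 53.1% bivalent, and 8.17% and 5.70% repressive. Among HCPs, which include all members but Mapk10, 40.2% and 38.4% were active and 52.2% and 54.6% bivalent. Members with 5 H3K4me3 peaks in LLC-R stood next to the mean of 4.61, and with 1 H3K4me3 peak fewer Mapk8, which held 3 H3K9ac peaks there, would be called repressive. For H3K27me3, the 4 peaks of Mapk3, Mapk8 and Mapk9 in LLC-NR stood next to the mean of 4.56, and the 6 of Mapk8 in LLC-R next to 5.46. Mapk10 held 4 H3K4me3 and 4 H3K9ac peaks in LLC-R, against means of 4.61 and 4.97. With 1 more peak of either it would be bivalent. The share of all promoters with the same changes of state was not counted.

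The midpoints of single peaks show which nucleosome positions made these numbers. At Mapk9, H3K4me3 peaks of LLC-NR lay at -843, -640, -478, -301, -138, 121 and 356 bp from the TSS, and those of LLC-R at -853, -494, -299, 118 and 320 bp. The LLC-NR peaks at -640 and -138 bp had no counterpart in LLC-R, where the nearest midpoints were at -494 and -299 bp. For H3K9ac a peak was called near -138 bp in both lines, at -125 bp (LLC-NR) and at -134 bp (LLC-R). The H3K9ac midpoints nearest to -640 bp were at -688 bp in LLC-NR and at -493 bp in LLC-R. H3K27me3 peaks of Mapk9 lay at -835, -303, -99 and 220 bp in LLC-NR and at -880, -687, -512, -319, 56, 231 and 474 bp in LLC-R. LLC-R thus held H3K27me3 peaks at -687 and -512 bp where LLC-NR held H3K4me3 but no H3K27me3 peaks.

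The ChIP-qPCR primers that the study lists for Mapk9 are shown because they fix which nucleosome that assay reads. Each matched chromosome 11 once.
Mapk9 forward primer: acactgtagtcgcaaagtcacg
Mapk9 reverse primer: tgcacagagttagggatccag
Their product of 145 bp runs over chr11:49659892-49660036 on mm9, from 361 to 217 bp before the TSS and outside any protein-coding gene. It is covered by the peak near -300 bp. A single H3K4me3 peak covered 92.4% of it in LLC-NR against 93.8% in LLC-R. The H3K9ac peak covered 90.3% and 99.3%, and the H3K27me3 peak 91.0% and 80%. Peaks of these 3 marks were therefore called at this nucleosome in both lines. Since peaks cover 31.3% to 50.4% of the chromosomes in each library, such a call alone does not show enrichment. The H3K4me3 peaks at -640 and -138 bp that LLC-R lacked lie outside the product. For H3K36me3 no peak touched the product in LLC-NR, and 1 at -394 bp covered 28.3% of it in LLC-R. The height of these peaks is not given in the files.

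**Figure D2:**
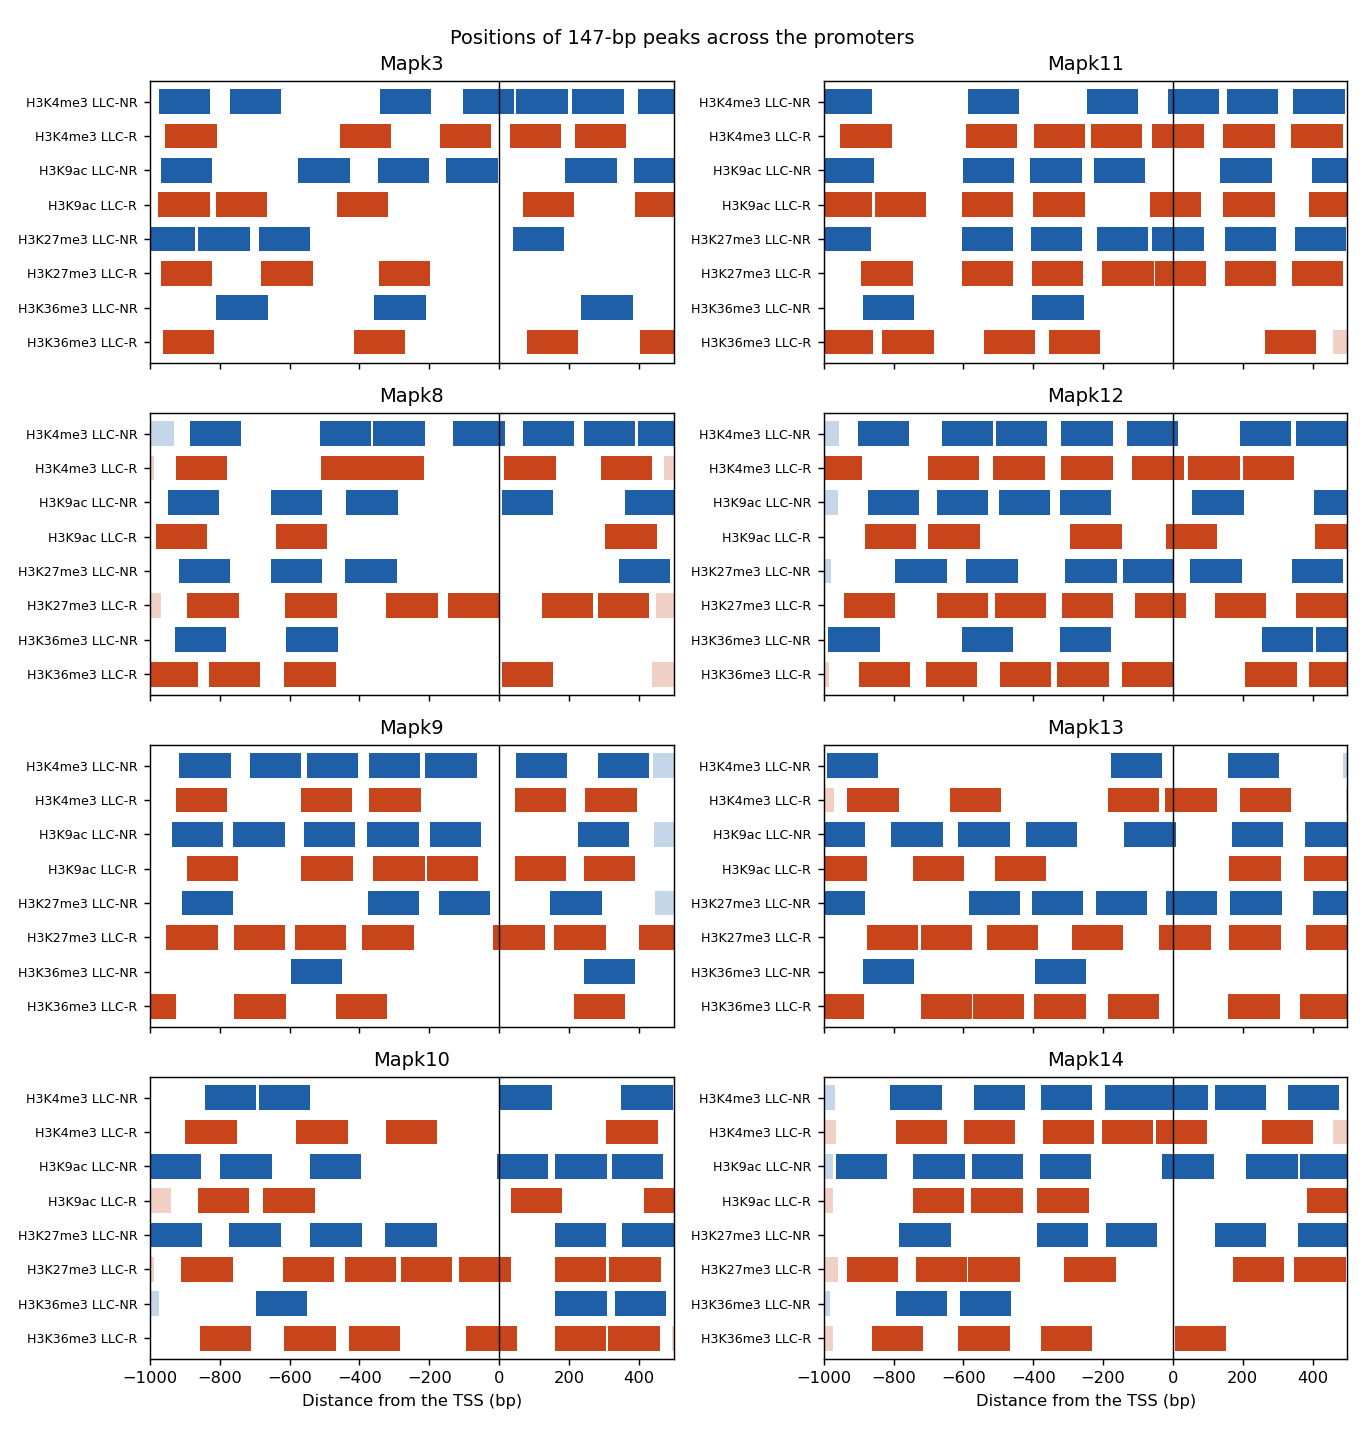
Each block is a 147-bp peak placed by its distance from the TSS in bp (vertical line), with 1 row per mark and line (blue LLC-NR, red LLC-R) and 1 panel per gene; pale blocks have their midpoint outside the promoter. The rows of Mapk11 repeat nearly the same positions across H3K4me3, H3K9ac and H3K27me3, while Mapk3 has no H3K27me3 peak in LLC-R with its midpoint between the TSS and 0.5 kb after it.

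Positions were compared between the lines by the share of LLC-NR promoter peaks with an LLC-R peak of the same mark within 20 bp. In the 7 members with HCPs this was 22 of 44 peaks for H3K4me3 (50%), against 44.6% in all HCPs. For H3K9ac it was 21 of 43 (48.8%, against 44.5%), for H3K27me3 15 of 37 (40.5%, against 33.6%) and for H3K36me3 5 of 18 (27.8%, against 34.4%). The members differed among themselves. In Mapk11, the gene of p38 beta, 6 of 7 H3K27me3 peaks, 5 of 6 H3K9ac peaks and 4 of 6 H3K4me3 peaks had such a partner. Its H3K27me3 peaks lay at -532, -334, -144, 14, 222 and 422 bp in LLC-NR and at -531, -331, -129, 21, 222 and 414 bp in LLC-R, besides a first one at -939 and -819 bp. In Mapk10, no H3K4me3 peak, no H3K9ac peak and 1 of 6 H3K27me3 peaks had a partner. For H3K36me3 the order was reversed, with 2 of 3 peaks in Mapk10 and 0 of 2 in Mapk11.

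The stretch over the TSS was measured as the distance between the last midpoint before the TSS and the first one after it. Mapk14 had the shortest H3K4me3 distance, 148 bp (LLC-NR) and 154 bp (LLC-R), against medians of 258 and 283 bp in HCPs, so that peaks lay on the TSS in both lines. That of Mapk9 went from 259 bp in LLC-NR to 417 bp in LLC-R, and that of Mapk8 from 198 to 377 bp. Mapk3 had the longest H3K27me3 distance in LLC-R. It measured 729 bp (LLC-NR) and 993 bp (LLC-R), at percentiles 86.1 and 97.8 of HCPs, while its H3K4me3 distance was 153 and 201 bp. In Mapk11 the H3K27me3 distance was 158 and 150 bp, at percentiles 2.83 and 1.09. In LLC-R the ERK1 and p38 beta genes thus stood at opposite ends of HCPs for H3K27me3 at the TSS.

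Several members have annotated TSSs more than 1 kb from the main one. The TSS of Mapk9 that lies 7.462 kb inside the gene went from 3 H3K4me3 peaks in LLC-NR to 5 in LLC-R, the reverse of its main promoter. These numbers stood at percentiles 18.6 and 52.1 of main promoters. It held 3 and 7 H3K27me3 peaks, and 6 H3K9ac peaks in each line. Mapk10 has 5 further TSSs, from 2.322 to 184.339 kb inside the gene, with 3 to 5 H3K4me3 peaks in LLC-NR and 1 to 4 in LLC-R. The one at 2.322 kb held 5 and 1 peaks, the largest H3K4me3 difference at any TSS of the members. The TSS of Mapk14 at 50.277 kb held 7 and 5 H3K4me3 peaks and 3 and 6 H3K27me3 peaks, and the one of Mapk8 at 57.93 kb 6 and 3 H3K4me3 peaks. The overlapping window of the Mapk8 TSS at 56.85 kb held 3 and 4 H3K4me3 peaks. The internal TSS of Mapk3 at 3.676 kb held 8 H3K36me3 peaks in each line, at percentiles 99.9 and 99.1 of main promoters. These windows lie in gene bodies of the same genes, and their numbers are unscaled. Among all main promoters, H3K4me3 was lower in LLC-R by at least 2 peaks in 18.4% and by at least 3 in 5.26%. It was higher by at least 2 in 9.01%, and H3K27me3 was higher by at least 3 in 13.1%.

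Gene bodies, from 0.5 kb after the TSS to the gene end, were ranked by peaks per kb among 18621 protein-coding genes with a body of at least 2 kb. Among the members, H3K36me3 was densest in Mapk3, Mapk9 and Mapk14 in LLC-NR, with 4.37, 4.14 and 4.10 peaks per kb at percentiles 98.8, 93.3 and 91.8. Mapk10 held 2.27 peaks per kb at percentile 17.0. In LLC-R, Mapk13, Mapk14, Mapk11 and Mapk9 lay close together with 4.39, 4.38, 4.38 and 4.37 peaks per kb, at percentiles 89.8, 89.7, 89.4 and 88.2, and Mapk10 was again lowest, with 3.55 peaks per kb at percentile 20.2. Mapk13 moved most in rank, from percentile 50 with 3.15 peaks per kb to percentile 89.8. This move rests on 28 and 39 peaks, and divided by the peaks of each library its LLC-R to LLC-NR ratio was 1.02. The median percentile of the 8 members was 76.6 (LLC-NR) and 79.4 (LLC-R).

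In the H3K27me3 order of gene bodies, genes of p38 beta and delta were highest and the ERK1 gene lowest in both lines. Mapk11 held 4.53 (LLC-NR) and 4.38 (LLC-R) H3K27me3 peaks per kb, at percentiles 99.3 and 92.0, and Mapk13 4.05 and 4.39, at percentiles 90.8 and 92.3. Mapk3 held 1.75 and 2.80 peaks per kb, at percentiles 11.2 and 7.75. Mapk9 held 2.53 and 3.65 peaks per kb, Mapk8 2.71 and 3.74, Mapk14 2.65 and 3.57, Mapk10 2.90 and 3.93, and Mapk12 3.22 and 3.85. Mapk11 was also dense in marks of active chromatin. Its H3K4me3 density was 4.38 peaks per kb in LLC-NR at percentile 98.9, and 3.32 in LLC-R at percentile 84.9. Its H3K9ac density was 4.53 and 3.93, at percentiles 95.8 and 77.3. Mapk10 was low in H3K4me3, with 1.89 and 2.33 peaks per kb at percentiles 12.1 and 27.3, and in H3K9ac, with 3.14 and 3.24 at percentiles 11.4 and 20. Only its H3K27me3 stood in the middle of genes, at percentiles 56.2 and 60.3.

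**Figure D3:**
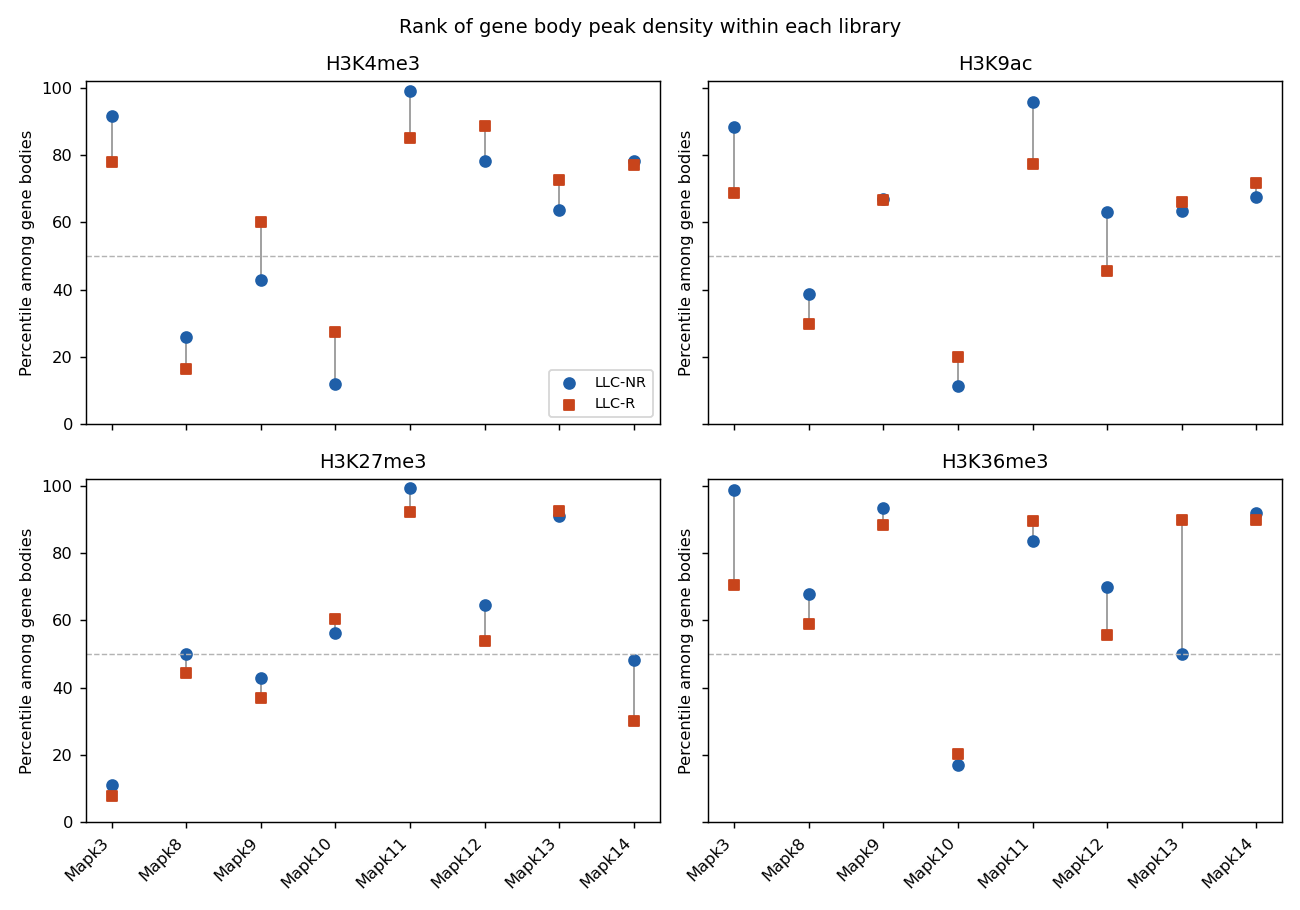
Points give the percentile of gene body peak density among protein-coding genes of the same library, for LLC-NR (blue circles) and LLC-R (red squares), with 1 panel per mark and the 50th percentile dashed. Mapk10 lies at or below percentile 27.3 for H3K4me3, H3K9ac and H3K36me3, and Mapk3 at 11.2 and 7.75 for H3K27me3.

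Between the lines, gene body densities were divided by the number of peaks of the library, and a difference past 1.2-fold in either direction was counted. For H3K36me3 it was found in 5 of 8 members, all lower in LLC-R, against 43% of all genes with peaks in both libraries. The ratios of LLC-R to LLC-NR were 0.706 in Mapk3, 0.776 in Mapk9, 0.786 in Mapk14, 0.819 in Mapk12 and 0.820 in Mapk11. The median log2 ratio was -0.29 in the members and -0.13 in all genes. Before this division, densities were higher in LLC-R in 7 of 8 members, so the direction depends on it. H3K4me3 was past 1.2-fold in Mapk11, at 0.761, and in Mapk10, at 1.24, against 20.5% of all genes. Scaled by uniquely mapped reads, Mapk11 was no longer past it, and Mapk9, Mapk10, Mapk12 and Mapk13 were, all higher in LLC-R. Scaled by the peaks within 0.5 Mb, Mapk11 alone was past it. H3K27me3 was past it in Mapk11, at 0.769, and in Mapk3, at 1.27 and from 10 and 16 peaks, against 44.1% of all genes. No member was past it for H3K9ac, against 6.57% of all genes, with ratios from 0.943 to 1.12. Scaled by uniquely mapped reads instead, all 8 members were past 1.2-fold in H3K9ac, H3K27me3 and H3K36me3, higher in LLC-R for H3K9ac and lower for H3K27me3 and H3K36me3, so that the sign of Mapk3 in H3K27me3 turns with the scaling. Mapk3, Mapk11, Mapk12 and Mapk13 have bodies of 5.72 to 9.62 kb with at most 40 peaks of a mark, and the 95% intervals of all their ratios included 1.

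Mapk10 is the longest member, with a body of 303 kb, so its ratios rest on the most peaks. Its H3K4me3 log2 ratio was 0.31 (95% interval 0.15 to 0.47, from 571 and 706 peaks), that of H3K9ac 0.16 (0.03 to 0.29) and that of H3K36me3 0.20 (0.06 to 0.34). These intervals treat peaks as independent counts, cover counting error only and do not stand for differences between tumors. The 0.5 Mb on either side of Mapk10 had log2 ratios of 0.25 for H3K4me3 and 0.18 for H3K36me3, so that the gene exceeded its surroundings by 0.06 and 0.03. Mapk9 had a log2 ratio of 0.14 for H3K4me3 and -0.06 in its surroundings. For H3K36me3 it was at -0.37 (-0.68 to -0.05), with -0.10 in its surroundings. Mapk14, at -0.35 (-0.61 to -0.08), and Mapk8, at -0.26 (-0.51 to -0.01), were the other members whose H3K36me3 interval did not include 0. The median of all genes for H3K36me3 was -0.13, which lies inside the intervals of Mapk9, Mapk14 and Mapk8. Among genes of like length the H3K36me3 ratio of Mapk3 was at percentile 2.79 and that of Mapk9 at percentile 16.4. Those of Mapk14 and Mapk8 were at percentiles 19.5 and 39.4.

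**Figure D4:**
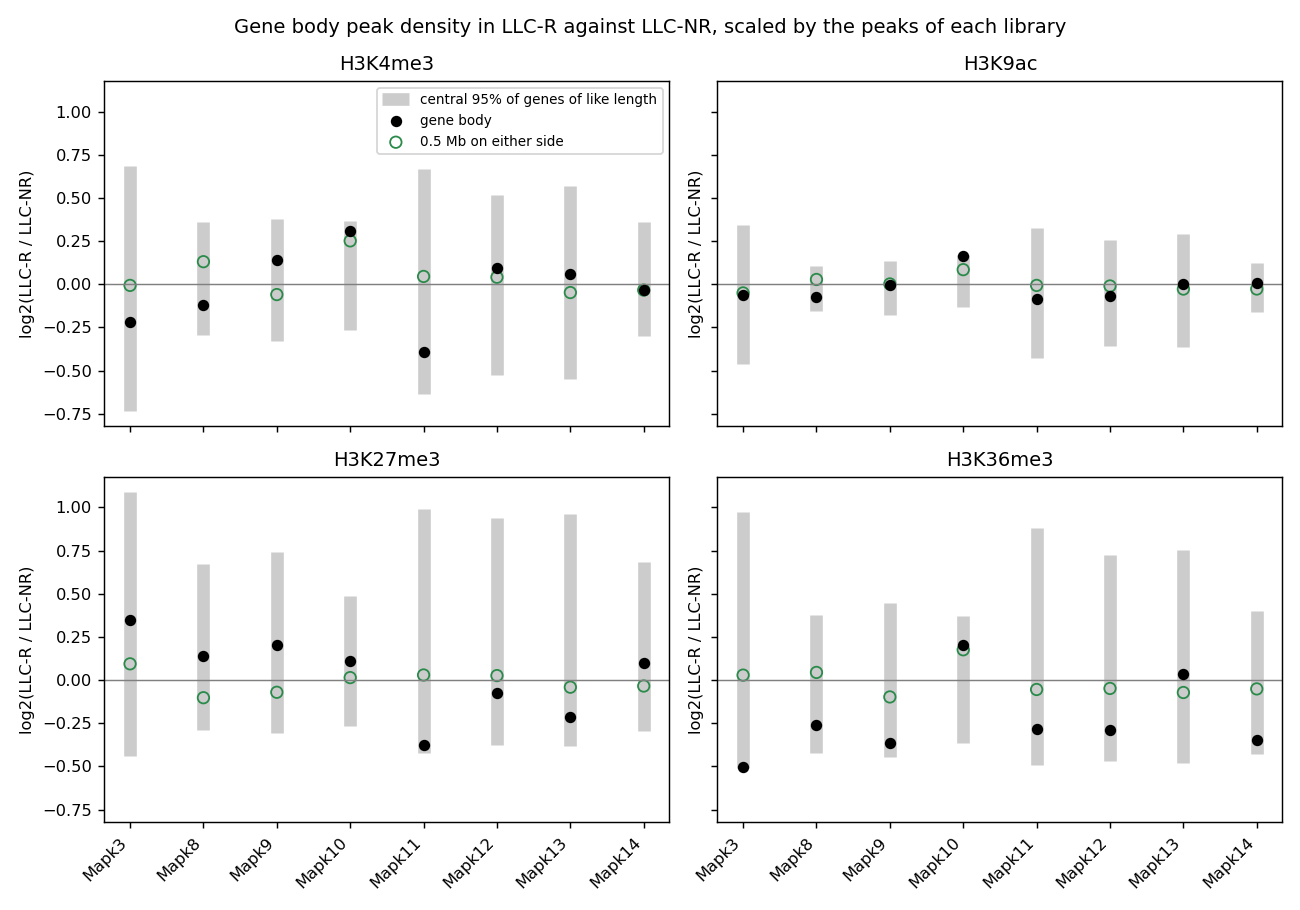
Black points give the log2 ratio of LLC-R to LLC-NR in gene body peaks, scaled by the peaks of each library, and open green circles the same ratio for 0.5 Mb on either side of the gene; grey bars span the central 95% of genes whose body length is within 1.5-fold. All points lie inside their grey bars, and Mapk10 moves with its surroundings in H3K4me3 and H3K36me3.

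The 4 longest genes were cut into 10 equal bins from the TSS to the gene end. H3K4me3 of Mapk9 was densest in bin 1, with 4.29 (LLC-NR) and 3.78 (LLC-R) peaks per kb, and thinned to 1.76 and 1.51 in bin 10. H3K36me3 of Mapk9 went the other way, from 3.78 peaks per kb in each line in bin 1 to 5.04 and 4.79 in bin 10. Mapk14 was also densest in H3K4me3 in bin 1, with 3.86 and 4.03 peaks per kb. The H3K4me3 ratio of the last 3 bins to the first 3 was 0.722 (LLC-NR) and 0.692 (LLC-R) in Mapk9. The other long genes did not show a slope of this size. Their ratios were 1.07 and 1.05 in Mapk10, 0.979 and 1.17 in Mapk8, and 0.949 and 0.912 in Mapk14. The same ratio for H3K36me3 was 1.03 and 1.08 in Mapk10, and 1.16 and 1.08 in Mapk9. Bin 3 of Mapk10 was the lowest for H3K36me3, with 1.58 and 2.27 peaks per kb, and for H3K4me3, with 1.45 and 1.48. It contains 2 stretches without the midpoint of a peak of any library, from 60.802 to 67.156 and from 82.292 to 88.586 kb after the TSS. The authors kept uniquely mapped reads only, and how many positions of these stretches can be mapped was not tested.

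**Figure D5:**
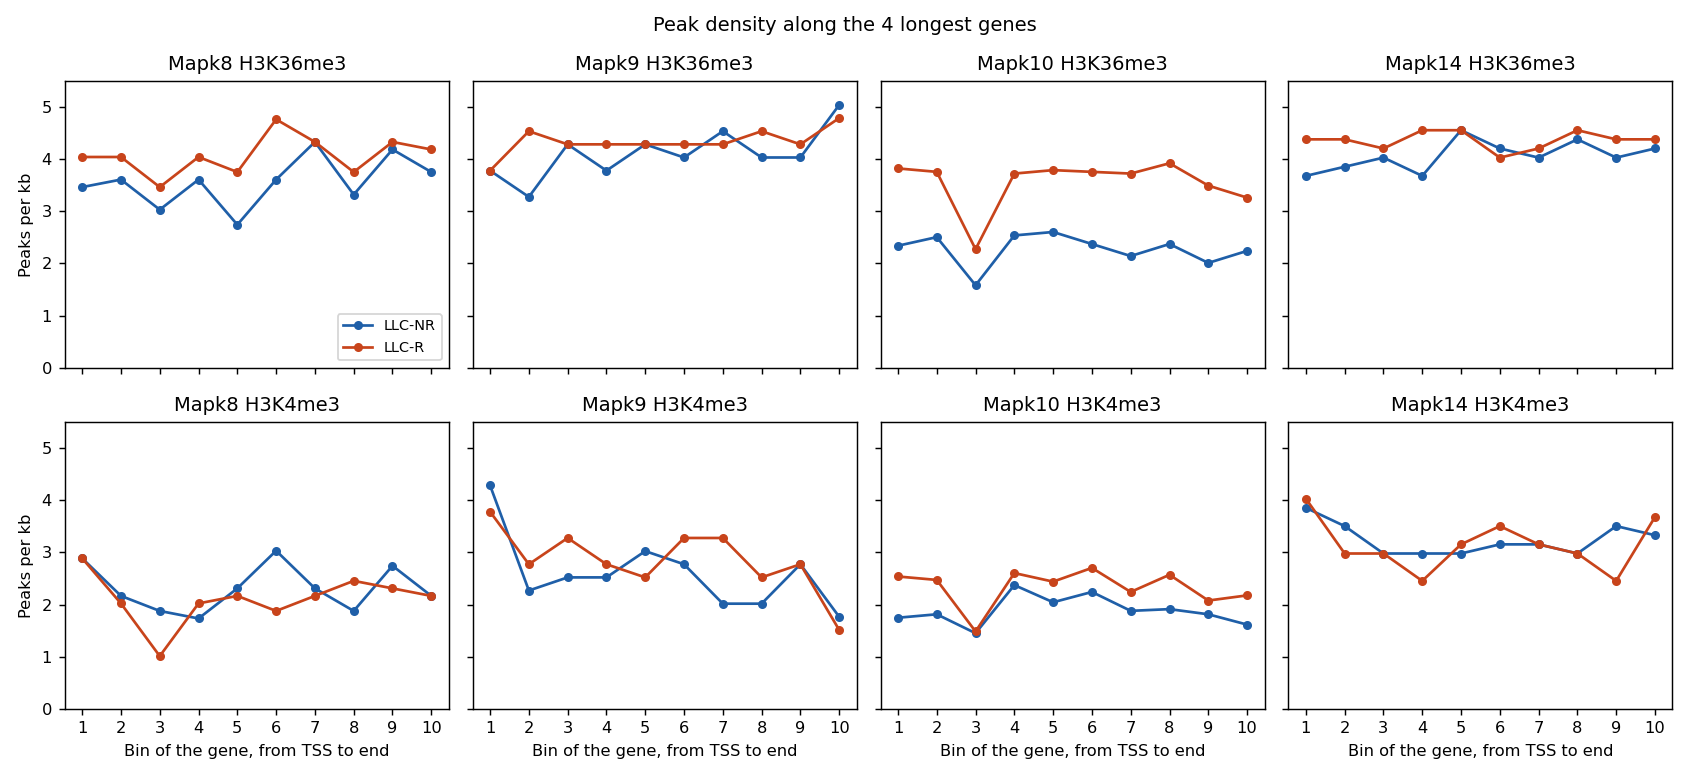
Lines give the peaks per kb in 10 equal bins of the gene from TSS to gene end, for H3K36me3 (top) and H3K4me3 (bottom) in LLC-NR (blue) and LLC-R (red). H3K4me3 of Mapk9 goes from 4.29 and 3.78 peaks per kb in bin 1 to 1.76 and 1.51 in bin 10, and Mapk10 dips in bin 3 in both marks and lines.

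Both pairs of p38 genes are neighbours on the same strand. Mapk12 begins 1.78 kb after the end of Mapk11 on chromosome 15, and this stretch held 6 (LLC-NR) and 7 (LLC-R) H3K27me3 peaks, and 9 and 7 H3K4me3 peaks. Most of it is the promoter of Mapk12, so these are partly the same peaks. Mapk13 begins 20.9 kb after the end of Mapk14 on chromosome 17. The stretch between them held 2.68 and 2.63 H3K4me3 peaks per kb, and 3.21 and 3.92 H3K27me3 peaks per kb. The partners differed in H3K27me3 on chromosome 17, where the body of Mapk14 was at percentiles 48.1 and 30.1 and that of Mapk13 at 90.8 and 92.3. The TSS of Mapk14 also lies 1355 bp from that of Slc26a8, which is transcribed in the opposite direction.

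Of the other genes of the pathway, 65 were examined: 15 MAP kinase kinase kinases, 7 MAP kinase kinases, 7 scaffolds, 10 phosphatases, 10 MAPK-activated kinases, 11 transcription factors and 5 other MAP kinases. Their promoters include 57 HCPs. H3K4me3 peaks were fewer in LLC-R by at least 2 in 14 of them (21.5%, against 18.4% of all promoters and 19.4% of HCPs). They were more by that much in none (against 9.01% of all promoters and 5.88% of HCPs). By group, these 14 are 2 MAP kinase kinase kinases, 1 MAP kinase kinase, 3 scaffolds, 1 phosphatase, 4 MAPK-activated kinases, 1 transcription factor and 2 other MAP kinases. H3K9ac peaks were fewer in 13 (20%, against 22.1%) and more in 8 (12.3%, against 5.4%). H3K27me3 peaks were more in 22 (33.8%, against 32%) and fewer in 5 (7.69%, against 3.47%). H3K36me3 peaks were more in 39 (60%, against 56%) and fewer in none. The shares of lower H3K4me3, lower H3K9ac, higher H3K27me3 and higher H3K36me3 were thus near those of all promoters. All these numbers are unscaled. The 65 genes were not recounted with scaling, on which the directions in the 8 members depended.

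Unscaled H3K4me3 was lower in LLC-R by 3 or more peaks in 5 of these 65 genes, against 5.26% of all promoters, and higher by that much in none, against 2.5%. Map3k10, a kinase that activates the JNK relay, went from 8 peaks in LLC-NR to 4 in LLC-R. Spag9, a scaffold of JNK, and Mapk7, which encodes ERK5, held 8 and 5 each. Mapkapk3, a kinase activated by p38, held 7 and 4, and Rps6ka3, a kinase activated by ERK, 4 and 1. H3K9ac of Map3k10 was also lower, at 7 and 4 peaks, while that of Spag9 was 6 in each line.

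The genes whose 8 gene body densities were nearest to those of Mapk9, by Euclidean distance of log2 density relative to the mean of each library over 13156 genes with bodies of at least 10 kb, were Tbc1d7, BC002230 and Trit1. Their distances were 0.11 each, against a median of 0.75 over all these genes. Because they were picked by this distance, the low distances and the similar densities follow from the choice. They lie on chromosomes 13, 12 and 4, and Mapk9 on chromosome 11. Their H3K36me3 densities were 4.08, 4.07 and 4.15 peaks per kb in LLC-NR, next to 4.14 in Mapk9. Among the members with bodies of that size, Mapk14 was nearest to Mapk9, at 0.36, and Mapk8 and Mapk10 were at 0.56 and 1.18.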

How the data were processed

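Reads had been aligned to mm9 by the authors with Bowtie 0.12.7 (up to 2 mismatches, reads with 1 mapped position only). GeneTrack was then run library by library, and its settings are not given in the sources used here. The deposited files hold the start and end of each peak in bp, with no header, height or strand. Gene models are GENCODE vM1 on NCBIM37, the assembly of mm9. Each gene has the TSS used by most of its transcripts. A peak was counted by its midpoint. CpG classes follow the methods of the study. Percentiles are mid-ranks among all protein-coding genes of a library.

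The members and lists were chosen with earlier results of these data known. Genes named are the 8 members, pathway genes whose promoters differ by 3 or more H3K4me3 peaks, and the 3 genes nearest to Mapk9. Body ratios were divided by the peaks of the library; intervals are exact 95% intervals of a ratio of counts. A call is a difference of 2 peaks or 1.2-fold, and no p-value is given. Counting and percentiles were tested on simulated data. Python 3.11.15, NumPy, pandas, SciPy and Matplotlib were used. Alternatives changed the scaling, TSS, promoter, overlap, gene region and state threshold. Peak heights, ChIP-qPCR results and expression were not analysed here. The promoter sequence of Mapk3 is not reported here.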

Additional observations from a re-analysis of the deposited data

How the results depend on the processing

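No paired analysis was possible because each line and mark has 1 library. Of the alternative values, 41 stayed within 1.5-fold of the count reported or within 5 percentile points, and 23 did not. The counts are numbers of members, and the genes behind an unchanged number could differ. Scaled by the peaks within 0.5 Mb, 2 members were still past 1.2-fold in H3K27me3 gene body density, but Mapk9 took the place of Mapk3. For H3K36me3, Mapk8 was then past it and Mapk11 and Mapk12 were not. Scaling moved most. Multiplied to equal peaks, 0 members had H3K4me3 lower by 2 (5 peaks of LLC-R then fall just short of it), 1 had H3K9ac lower, 0 had H3K27me3 higher and 1 had H3K36me3 higher. Scaled by uniquely mapped reads, 0 members were lower in H3K4me3 and 2 higher, 0 were lower in H3K9ac and 4 higher, 6 were lower in H3K27me3 and 0 higher, and 0 were higher in H3K36me3. With a promoter of 1 kb on either side, or any overlap of a peak, 4 members had more H3K27me3 peaks. In gene bodies scaled by reads, 4 members were past 1.2-fold in H3K4me3 and 8 each in H3K9ac, H3K27me3 and H3K36me3. Scaled by the peaks within 0.5 Mb, 1 was past it in H3K4me3, and over the whole gene 1 in H3K27me3. With 2 times the mean as threshold, 0 members were active or bivalent in either line, but that threshold lies above the 9 peaks that any promoter held, so no promoter could pass it. Among promoters of the same CpG class, the median percentile of members was 74.6 for H3K4me3 peaks and 66.2 for H3K36me3 density of LLC-NR, against 84.9 and 76.6 among all. The alternatives for H3K36me3 promoter peaks were chosen after seeing the data. The most upstream TSS moved no value past these limits. The files hold no heights and no promoter held more than 9 peaks, so a difference in height alone is not seen.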
